A study of Homo sapiens with 5 samples.

Results

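The metallothionein family was described from 6 probes, those of MT1E, MT1F, MT1G, MT1M, MT1X and MT2A, among the 28264 probes and 19090 named genes of a human expression array. The family as defined here has 7 genes, and its probes were taken by gene symbol alone. Earlier results of these data were known when the members were chosen. No probe carries the symbol MT1H in the annotation used, so MT1H was not analysed here. Each of the other 6 members has 1 probe, and 6 of 6 passed the filter on dim probes. RNA came from MHCC97H cells, a human hepatocellular carcinoma line with high metastatic potential. The cells had been made to overexpress ACOT12 (n = 2 arrays), a mutant of ACOT12 (n = 1) or an empty vector (n = 2). All 3 groups, the empty vector cells included, are stable cells that had been under puromycin for 1 week. The labels name neither the promoter of the vector nor the residue that the mutant changes, and do not say whether a stable line is 1 clone. They also do not say whether replicates are separate cultures, so each p-value reflects only how far these 5 samples scatter, and that scatter may be technical.

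Metallothioneins are small, cysteine-rich proteins that bind zinc and copper in clusters and buffer the free metal in the cell, and they also bind cadmium. Their genes lie next to each other on chromosome 16 and are switched on by zinc through MTF1, a zinc-sensing transcription factor that binds short metal response elements in their promoters. Glucocorticoids and oxidative stress induce them as well. In liver they are abundant and strongly inducible, and their expression is often low in hepatocellular carcinoma, where MT1G and MT1M are known to be silenced by promoter methylation.

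The promoters of MT2A and MT1X, the members with the brightest probes, are shown with their matches to the metal response element. Both windows run from 250 bases before to 50 bases after the start site on the plus strand of GRCh38.p14, as given by RefSeq. MT2A lies at chr16:56608334-56608633 and MT1X at chr16:56682220-56682519. Capitals mark matches to the core of the metal response element, searched as TGCACNC and TGCGCNC on both strands.
MT2A: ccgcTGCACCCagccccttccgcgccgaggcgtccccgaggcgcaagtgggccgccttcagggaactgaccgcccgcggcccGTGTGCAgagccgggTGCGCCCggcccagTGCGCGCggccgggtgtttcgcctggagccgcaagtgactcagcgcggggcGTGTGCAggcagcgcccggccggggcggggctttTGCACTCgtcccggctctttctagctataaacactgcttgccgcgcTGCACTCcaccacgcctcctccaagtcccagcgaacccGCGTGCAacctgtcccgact
MT1X: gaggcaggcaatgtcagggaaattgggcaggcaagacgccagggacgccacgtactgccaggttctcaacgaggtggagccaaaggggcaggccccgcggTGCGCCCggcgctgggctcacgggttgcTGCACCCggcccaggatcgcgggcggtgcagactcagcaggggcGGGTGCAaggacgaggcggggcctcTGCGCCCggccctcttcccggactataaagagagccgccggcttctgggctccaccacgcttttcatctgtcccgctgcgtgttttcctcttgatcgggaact
MT2A held 8 matches, 5 on the strand of the gene and 3 on the other strand, from base −246 to base 31 relative to the start site. MT1X held 4 matches, 3 and 1 by strand, between base −150 and base −53. No matches overlapped. Of 35116 promoters of the same length, 29.6% held at least 1 match, 0.601% at least 4 and 0.0199% at least 8. A match is a description of the letters, not evidence that a factor binds there. A promoter sequence was found for 3 of the 7 members, and the third, MT1H, held 8 matches too.

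The arrays had median probe intensities of 816 and 825 with ACOT12, 616 with the mutant and 805 and 700 with empty vector. With 5 arrays in all, precision is set by their number. The ACOT12 probe read 4733 and 4859 in ACOT12 cells and 4030 in mutant cells, against 59.2 and 18.0 in empty vector cells, as the labels imply. Of 16 hepatocyte and liver cancer markers on the array, 14 passed the filter on dim probes, against 4 of 7 immune, 5 of 6 endothelial, 3 of 6 fibroblast and 4 of 4 erythroid markers. Taking 1 probe a gene, that with the highest mean log2 value, no marker was listed at or below 0 on any array. The mutant array stood apart from the rest. Its log2 values correlated at 0.972 to 0.985 across genes with the other 4 arrays, which correlated at 0.987 to 0.993 with each other. The highest of its correlations, 0.985, was with empty vector replicate 2. Its dim probes read low: with the genes tested ranked by mean log2 value and divided into deciles of equal size, the dimmest decile had a median log2 difference from empty vector of −0.29 and the brightest −0.020. The ACOT12 arrays read high in that dimmest decile, with a median of 0.32 against empty vector. These shifts with brightness are given beside each member, and their part in its difference was not tested.

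MT2A, the isoform most widely expressed in human tissues, was read by probe PH_hs_0038876. It read 2117 and 3352 intensity units in ACOT12 cells and 3769 in mutant cells, against 2255 and 2118 in empty vector cells. The mutant array was the highest of the 5, ACOT12 replicate 2 came next, and ACOT12 replicate 1 lay with the empty vector arrays. MT1X, a zinc-inducible isoform, read 1155 and 2002 in ACOT12 cells and 1801 in mutant cells, against 1478 and 1543 in empty vector cells (PH_hs_0018184). Here the ACOT12 replicates were the lowest and the highest of the 5 arrays, and both empty vector arrays lay between them. MT1E, another inducible isoform, read 404 and 473 in ACOT12 cells and 483 in mutant cells, against 426 and 384 in empty vector cells (PH_hs_0040048). Its range was the narrowest of the family, and the ACOT12 and empty vector arrays overlapped.

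**Figure D1:**
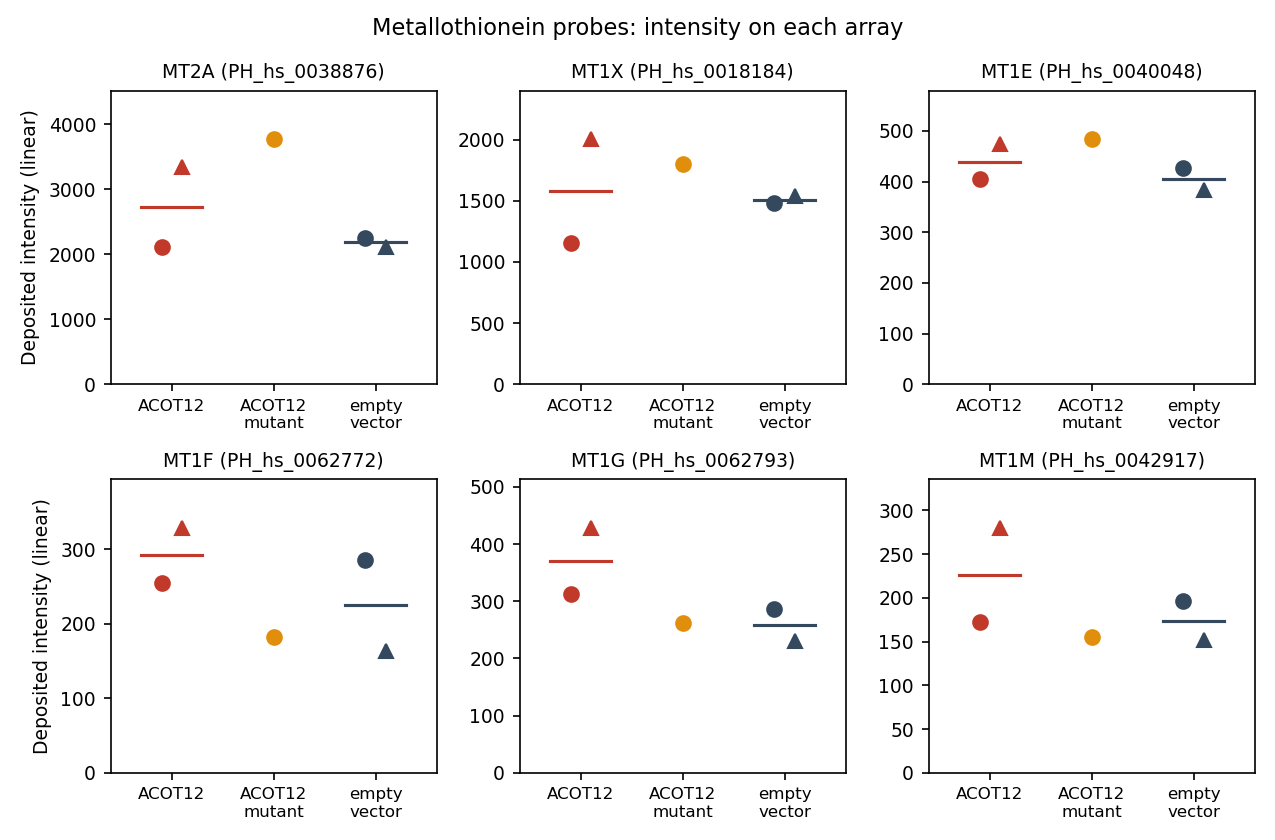
Deposited intensity (linear scale, axes from 0) of the 6 metallothionein probes on each array, with circles for replicate 1, triangles for replicate 2 and a line at the mean of the groups with 2 arrays. MT2A read highest with the mutant (3769), whereas MT1F, MT1G and MT1M read highest on ACOT12 replicate 2 (329, 428 and 280).

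The other 3 members were dimmer. MT1G, an isoform frequently silenced in hepatocellular carcinoma, read 313 and 428 in ACOT12 cells and 262 in mutant cells, against 287 and 231 in empty vector cells (PH_hs_0062793). Both ACOT12 arrays lay above both empty vector arrays, and the mutant array lay between the empty vector replicates. MT1F, an isoform of the same cluster, read 255 and 329 in ACOT12 cells and 182 in mutant cells, against 286 and 163 in empty vector cells (PH_hs_0062772). MT1M, which is likewise often lost in this cancer, read 173 and 280 in ACOT12 cells and 155 in mutant cells, against 196 and 152 in empty vector cells (PH_hs_0042917). For both genes ACOT12 replicate 2 was the highest array and the 2 groups with replicates overlapped. On the 5 arrays MT1M ranked at percentiles 23.1 to 30.8 among all probes, close to the filter at the 25th percentile of mean log2 values (7.34, against 7.55 for MT1M). MT2A ranked at percentiles 66.1 to 75.7. No detection flags were used here, so how far the 3 dim probes read above background is unknown. The same holds for MT1E, which lies in the brightness decile of MT1G. Coding sequences of the family are nearly identical and probe sequences were not used here, so a reading may include RNA of other members.

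With ACOT12, no member passed the threshold against empty vector, although 6 of 6 read higher on average. On the log2 scale the largest difference was that of MT1G, at 370 ± 81.8 intensity units in ACOT12 cells against 259 ± 39.6 in empty vector cells (SD, n = 2 each), or 0.51 ± 0.22 on the log2 scale (SE, limma, adjusted p = 0.994). MT1F read 0.42 ± 0.29, MT1M 0.35 ± 0.27, MT2A 0.29 ± 0.24, MT1E 0.11 ± 0.17 and MT1X 0.0096 ± 0.27 log2 units higher. The threshold was an adjusted p under 0.05 over all genes tested, and 0 of 6 members passed it (limma), where 0% of the 15053 genes tested did. ACOT12 itself, 7.15 ± 0.50 log2 units higher, did not pass either (limma, adjusted p = 0.122). Failing the threshold therefore does not show that a gene was unchanged. At an unadjusted p under 0.05 the counts were 0 of 6 members and 452 genes (3%). Groups did not overlap for 1 of 6 members, MT1G, against 31.7% of all genes. The median member difference was 0.32, beside 0.05 for all genes tested, of which 61.4% read higher.

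Genes of like brightness also read higher. In the brightness decile that holds MT1F and MT1M the median gene read 0.32 higher with ACOT12, and in the decile that holds MT1E and MT1G 0.25 higher. MT1M and MT1F lay close above that median, MT1E below its own and MT1G above it. In the brighter deciles of MT1X and MT2A the medians were 0.05 and 0.019. Scaling changed the direction of 3 members: 4 of 6 read higher with array medians centred, and 3 of 6 after quantile normalization or cyclic loess, where the median member difference was 0.06 under either. MT2A, MT1F and MT1G read higher under each of these scalings, at 0.26 to 0.38 for MT1G.

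**Figure D2:**
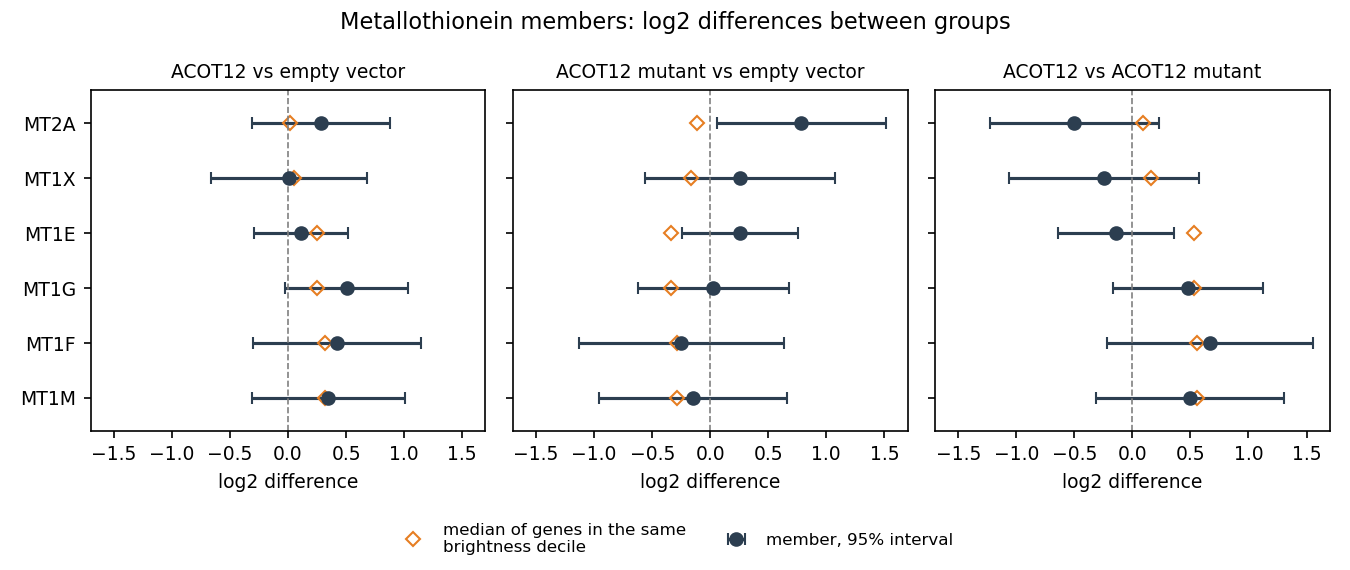
Log2 difference of each member in the 3 comparisons (filled circles, bars for the 95% interval of the fit) beside the median log2 difference of tested genes in the same decile of brightness (open diamonds). The interval of MT2A for the mutant against empty vector, 0.06 to 1.51, was the 1 interval of 18 that left out 0.

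The positive average depended in part on empty vector replicate 2, and more on 1 of the ACOT12 arrays. Replicate 2 read above replicate 1 for 6 of 6 members, by 0.79 log2 units for MT1X, 0.69 for MT1M, 0.66 for MT2A, 0.45 for MT1G, 0.37 for MT1F and 0.23 for MT1E. The median over members was 0.56, whereas it was 0.05 over all genes tested, of which 57.3% read higher on replicate 2. Between the empty vector replicates 1 of 6 members read higher on replicate 2, with a median of −0.23 beside −0.06 for all genes, of which 38.9% read higher. The deciles of the 4 dimmer members had medians of −0.28 (MT1E and MT1G) and −0.36 (MT1F and MT1M) there. MT1F differed most there (−0.80), while MT1X (0.06) and MT2A (−0.09) differed little. Without ACOT12 replicate 2 the median member difference from empty vector was −0.00027, with 3 of 6 members higher, MT2A at −0.046 and MT1X at −0.39. Without ACOT12 replicate 1 it was 0.61, with 6 of 6 higher, and without empty vector replicate 2 it was 0.10. Whether this gap between ACOT12 replicates arose in the cells or in the handling of the arrays was not tested.

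**Figure D3:**
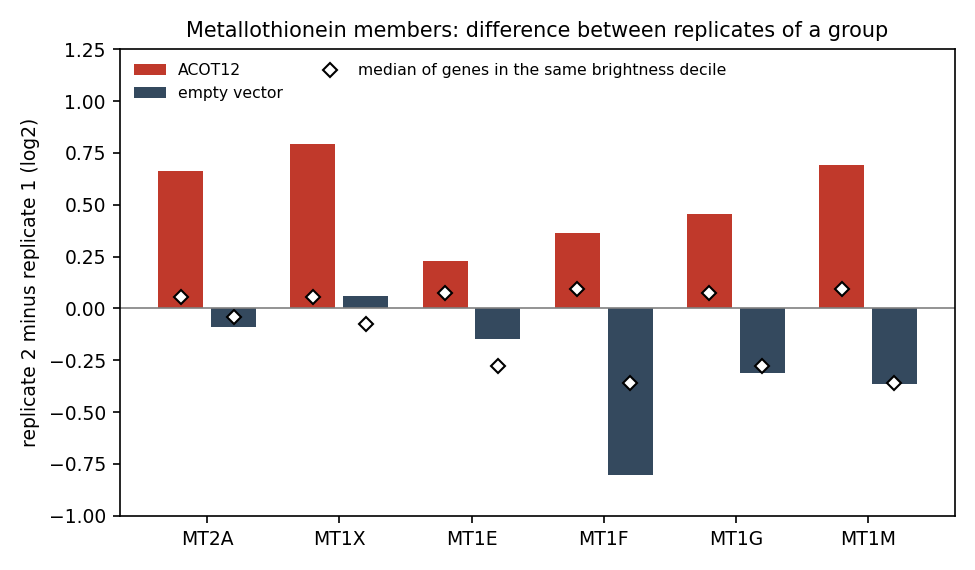
Difference between replicate 2 and replicate 1 (log2 units) of each member in ACOT12 and in empty vector cells (bars), with the median of tested genes in the same decile of brightness (diamonds). The ACOT12 bars reach 0.23 to 0.79 while their diamonds lie between 0.05 and 0.10.

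With the mutant, MT2A had the largest difference from empty vector of the family. It read 3769 in mutant cells against 2187 ± 96.9 in empty vector cells (SD, n = 2), a log2 difference of 0.79 ± 0.30 (SE). The unadjusted p was 0.0385 and the difference did not pass over all genes (limma, adjusted p = 0.213). Genes in its decile of brightness had a median of −0.11. MT1E read 0.26 ± 0.20 and MT1X 0.25 ± 0.33 higher, in deciles with medians of −0.34 and −0.16, and the mutant array lay above both empty vector arrays for each. MT1G read 0.026 ± 0.26, MT1M −0.15 ± 0.33 and MT1F −0.25 ± 0.36, where the medians of their deciles were −0.34, −0.29 and −0.29. As the mutant has 1 array, its spread was taken from the groups with replicates.

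Over the family, 0 of 6 members passed (limma), where 0.0332% of genes tested did, all of them lower, and 1 of 6 had an unadjusted p under 0.05, against 20.7% of all genes. ACOT12 itself, 6.90 log2 units higher with the mutant, did not pass in this comparison either. The mutant array lay outside the empty vector replicates for 3 of 6 members, MT2A, MT1X and MT1E, while it did so for 84.3% of all genes. The median member difference was 0.14 beside −0.13 for all genes, of which 36.8% read higher. Without empty vector replicate 2 the member median was 0.026, with 3 of 6 members higher. In the same fit 4 of 6 members read higher as deposited and 6 of 6 with array medians centred, quantile normalization or cyclic loess. Centring moved the median of all genes to 0.16 in this comparison. As it moves every gene by the same amount, MT2A necessarily exceeded that median by 0.91 both as deposited and after centring. Under centring MT2A passed, at 1.07 (limma, adjusted p = 0.00887), and over its 14 alternatives the adjusted p ran between 0.00887 and 0.341. Its log2 difference ran between 0.74 and 1.07 over those alternatives.

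**Figure D4:**
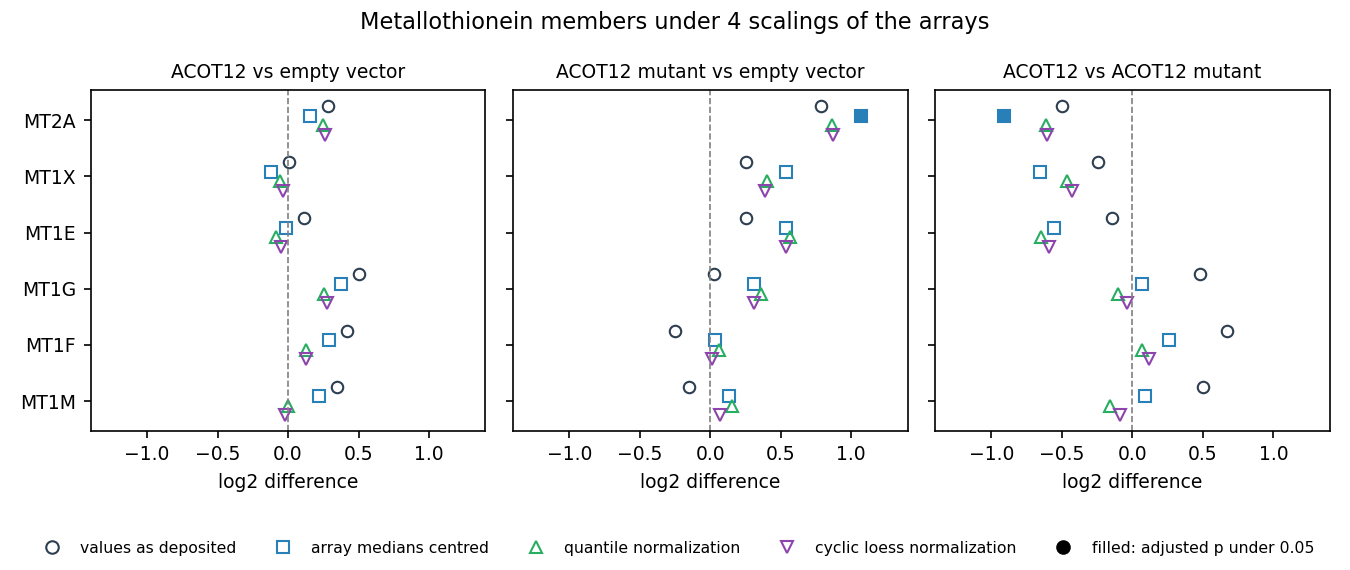
Log2 difference of each member in the 3 comparisons with the values as deposited and under 3 other scalings of the arrays, where filled symbols have an adjusted p under 0.05 (limma). MT2A with array medians centred is the filled member, at 1.07 for the mutant against empty vector and −0.91 for ACOT12 against the mutant.

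Compared directly with the values as deposited, the members went in both directions between ACOT12 and the mutant. The 3 dim members read higher with ACOT12, at 0.67 ± 0.36 log2 units for MT1F, 0.50 ± 0.33 for MT1M and 0.48 ± 0.26 for MT1G. The 3 brighter ones read lower, at −0.50 ± 0.30 for MT2A, −0.24 ± 0.33 for MT1X and −0.14 ± 0.20 for MT1E. Adjusted p lay between 0.368 and 0.761 (limma), and 0 of 6 members passed, where 9.23% of genes did. At an unadjusted p under 0.05 the counts were 0 of 6 and 3401 genes (22.6%). Groups did not overlap for 5 of 6 members, all but MT1X, against 73.6% of all genes.

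The genes around the dim members read higher with ACOT12 by as much, with medians of 0.56 in the decile of MT1F and MT1M and 0.53 in that of MT1G. MT1E, in the same decile as MT1G, read −0.14 beside that median of 0.53. The median member difference was 0.17 beside 0.13 for all genes, of which 65.7% read higher with ACOT12. It was 0.43 without ACOT12 replicate 1 and −0.052 without replicate 2. It turned to −0.24 with array medians centred, −0.31 after quantile normalization and −0.26 after cyclic loess, and after either of the last 2 scalings 1 of 6 members, MT1F, read higher with ACOT12. MT2A, MT1X and MT1E read lower with ACOT12 under each scaling. The difference of MT2A was −0.17 without ACOT12 replicate 1 and −0.83 without replicate 2, and with array medians centred it passed, at −0.91 (limma, adjusted p = 0.0255, against 0.210 to 0.648 over the other alternatives).

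The gap between MT2A and each other member was widest on the mutant array, the array on which MT2A itself was highest. The 5 gaps share MT2A, so they are not separate observations. A shift of a whole array cancels in a gap, a shift with brightness does not, and dim probes past the filter read low on the mutant array. To MT1X, the other bright member, the gap was 1.07 log2 units in mutant cells and 0.87 and 0.74 in ACOT12 cells, against 0.61 and 0.46 in empty vector cells. To MT1E it was 2.96 in mutant cells and 2.39 and 2.82 in ACOT12 cells, against 2.40 and 2.46 in empty vector cells. To the dim probes it was 4.37 (MT1F), 3.84 (MT1G) and 4.59 (MT1M) in mutant cells. In ACOT12 cells the gap was 3.05 and 3.35 to MT1F, 2.76 and 2.97 to MT1G, and 3.61 and 3.58 to MT1M, against 2.98 and 3.69, 2.97 and 3.19, and 3.52 and 3.79 in empty vector cells. The gaps are a description and were not tested.

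Of 10 other metallothionein genes and pseudogenes, 5 had a probe that was tested, and 0 passed in any comparison (limma). At an unadjusted p under 0.05 the counts were 1 of 5 for ACOT12 and 2 of 5 for the mutant against empty vector, and 2 of 5 for ACOT12 against the mutant, where 3%, 20.7% and 22.6% of all genes had one. MT1B, a dim member of the cluster, read 214 and 299 in ACOT12 cells and 112 in mutant cells, against 196 and 98.0 in empty vector cells. MT1HL1, a gene resembling MT1H on another chromosome, read 1386 and 890 in ACOT12 cells and 811 in mutant cells, against 736 and 776 in empty vector cells. MT1IP, a transcribed pseudogene of the cluster, read 406 and 445 in ACOT12 cells and 191 in mutant cells, against 417 and 276 in empty vector cells. The difference of MT1IP between ACOT12 and mutant, 1.15 ± 0.28 log2 units, came nearest to the threshold (limma, adjusted p = 0.0581). The median of its decile of brightness was 0.53 in that comparison. MT4, known from stratified epithelia, read 642 and 741 in ACOT12 cells and 555 in mutant cells, against 821 and 773 in empty vector cells, a log2 difference of −0.52 ± 0.20 for the mutant (adjusted p = 0.212). MT3, the brain isoform, read 2200 and 1692 in ACOT12 cells and 1650 in mutant cells, against 1810 and 2211 in empty vector cells. MT1HL1 and MT3 were higher on ACOT12 replicate 1 than on replicate 2, whereas MT1B, MT1IP and MT4 were higher on replicate 2, as the 6 members were. Medians over the 5 genes were 0.33 for ACOT12 and −0.30 for the mutant against empty vector, beside 0.05 and −0.13 for all genes. Genes of like brightness shifted too. For ACOT12 the deciles of MT1B, MT1IP, MT4, MT1HL1 and MT3 had medians of 0.32, 0.25, 0.15, 0.09 and 0.05. For the mutant they had medians of −0.29, −0.34, −0.28, −0.21 and −0.16.

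Genes that supply or sense the metals were read from lists of zinc importers, zinc exporters, copper carriers, regulators, and glucocorticoid, oxidative and heat stress genes. Against empty vector 0 genes of these lists passed with either transgene (limma), where 0 and 5 of all genes did. At an unadjusted p under 0.05 there were 0 such genes for ACOT12, where 3% of all genes had one, and for the mutant 1 of 12 zinc importers and 2 of 12 copper genes, where 20.7% of all genes had one. MTF1 itself has 2 probes. The brighter one read 552 and 888 in ACOT12 cells and 879 in mutant cells, against 672 and 608 in empty vector cells, and the other read 642 and 812 in ACOT12 cells and 573 in mutant cells, against 683 and 541 in empty vector cells. On both probes ACOT12 replicate 2 read above replicate 1, as for the 6 members, while the mutant array lay above both empty vector arrays on the first only. SLC30A1, a zinc exporter and a classical target of MTF1, read 2009 and 1844 in ACOT12 cells and 2303 in mutant cells, against 2053 and 1830 in empty vector cells, or 0.25 ± 0.19 log2 units for the mutant (limma, adjusted p = 0.520). MTF1 and SLC30A1 were named for their role after the values had been seen.

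For ACOT12 against empty vector 8 of 12 tested zinc importers read higher and 4 lower (median 0.13), and 5 of 5 zinc exporters read lower (median −0.03). The importers SLC39A2 (0.71 ± 0.29) and SLC39A8 (0.44 ± 0.20) had the smallest p of their list, and the exporters SLC30A5 (−0.18 ± 0.16) and SLC30A7 (−0.19 ± 0.23) of theirs. The other SLC39A8 probe read lower instead, at 412 and 455 in ACOT12 cells against 464 and 467 in empty vector cells. The other SLC30A7 probe read higher instead, at 1063 and 1054 in ACOT12 cells against 981 and 1020. The other SLC30A5 probes overlapped, at 1024 and 1089 in ACOT12 cells against 1059 and 1007 in empty vector cells, and at 3429 and 4106 against 3586 and 4205. Of 12 copper genes 4 read higher and 8 lower (median −0.03), with the ferroxidase CP at −0.31 ± 0.25 and the copper pump ATP7B at 0.27 ± 0.22. Of the 6 regulators and cofactors 3 read higher, USF1 (0.42 ± 0.22) and EP300 (0.27 ± 0.26) having the smallest p. Glucocorticoid genes divided into 6 higher and 3 lower, with FKBP5, a chaperone induced by the receptor, at −0.34 ± 0.18 and the phosphatase DUSP1 at 0.27 ± 0.18. The other FKBP5 probe, under the filter, read higher on average with overlap, at 135 and 108 in ACOT12 cells against 128 and 86.7 in empty vector cells. In the oxidative stress list 5 read higher and 6 lower, with HMOX1, the inducible heme oxygenase, at 0.22 ± 0.22 and the cystine carrier SLC7A11 at −0.13 ± 0.15. The other SLC7A11 probe, a dim one, read higher, at 252 and 282 in ACOT12 cells against 246 and 211 in empty vector cells. Among heat-induced chaperones 3 of 8 read higher, with BAG3 at −0.37 ± 0.15 and HSPA1A at −0.26 ± 0.25. Adjusted p of these 14 genes ran between 0.994 and 0.999 (limma).

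For the mutant against empty vector 7 of 12 zinc importers read higher and 5 lower (median 0.016), with SLC39A8 at −0.70 ± 0.24 and SLC39A6 at −0.38 ± 0.20. The other SLC39A8 probe read 518 in mutant cells, above both empty vector arrays (464 and 467). Of the exporters 1 of 5 read higher, SLC30A1, and SLC30A5 (−0.34 ± 0.20) and SLC30A6 (−0.25 ± 0.18) had the smallest p. Their other probes did not read lower throughout. That of SLC30A6 read 405 in mutant cells against 367 and 374 in empty vector cells. Those of SLC30A5 read 4080 (against 3586 and 4205) and 1066 (against 1059 and 1007). Of 12 copper genes 7 read higher and 5 lower (median 0.04), with ATP7B at −1.03 ± 0.27 and CP at −0.94 ± 0.30. CP read 17851 and 11190 in ACOT12 cells and 9082 in mutant cells, against 16828 and 18129 in empty vector cells, and its other probe was likewise lowest in mutant cells, at 9790. EP300 (−0.69 ± 0.32) and MTF2 (−0.44 ± 0.21) had the smallest p among the regulators, ZBTB16 (−0.53 ± 0.24) and DUSP1 (0.47 ± 0.22) among glucocorticoid genes. The other EP300 probe lay between the empty vector arrays, at 539 in mutant cells against 647 and 498. The other MTF2 probe read higher with the mutant, at 2066 against 1688 and 1597 in empty vector cells. The oxidative stress list had 7 of 11 members higher (median 0.07), with SLC7A11 at −0.36 ± 0.18 and HMOX1 at 0.38 ± 0.27. The other SLC7A11 probe, a dim one, read higher, at 271 in mutant cells against 246 and 211 in empty vector cells. Among heat-induced chaperones 7 of 8 read higher (median 0.26), with HSF1 at 0.37 ± 0.19 and HSP90AA1 at 0.29 ± 0.20. The other HSP90AA1 probe read 4472 in mutant cells, below both empty vector arrays (5310 and 4498). Adjusted p of these 14 genes ran between 0.117 and 0.501 (limma).

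Of the metal transport genes 2 passed between ACOT12 and the mutant. SLC39A8, a carrier of zinc, manganese and cadmium, read 714 and 608 in ACOT12 cells against 299 in mutant cells, and was higher by 1.14 ± 0.24 log2 units (limma, adjusted p = 0.0441). Its other probe did not show this, at 412 and 455 in ACOT12 cells against 518 in mutant cells. ATP7B, the copper pump mutated in Wilson disease, read 374 and 449 in ACOT12 cells against 166 in mutant cells, and was higher by 1.30 ± 0.27 (limma, adjusted p = 0.0417). With either ACOT12 array left out 0 genes passed in this comparison, these included. Both are dim genes, in deciles of brightness whose medians were 0.36 and 0.53. Of the 12 importers 1 passed as higher and 0 as lower, and of the 12 copper genes likewise, against 9.21% of all genes called higher and 0.0199% called lower. In the other lists 0 genes passed between ACOT12 and the mutant (limma), and 1 regulator, EP300 (0.97 ± 0.32), and 1 glucocorticoid gene, ZBTB16 (0.73 ± 0.24), had an unadjusted p under 0.05. The other EP300 probe overlapped, at 527 and 787 in ACOT12 cells against 539 in mutant cells. Zinc exporters read higher in 3 of 5 genes, regulators in 3 of 6, glucocorticoid genes in 4 of 9 and oxidative stress genes in 5 of 11. Among heat-induced chaperones 1 of 8 read higher with ACOT12 (median −0.37), with HSF1 at −0.44 ± 0.19 and BAG3 at −0.41 ± 0.19. In the same comparison COL1A1 of the fibroblast, VWF of the endothelial and ALAS2 of the erythroid markers passed as higher with ACOT12. They read 2.13, 1.54 and 1.00 log2 units higher, in deciles of brightness with medians of 0.09, 0.25 and 0.53. Summed intensity of the fibroblast markers was 8524 to 8949 in ACOT12 cells against 5183 in mutant cells, that of the endothelial markers 4229 to 5084 against 2637, and that of the erythroid markers 3296 to 4336 against 2036. Empty vector cells summed to 6434 to 8660, 3761 to 4475 and 2532 to 3539 for these lists. All samples are cultures of the MHCC97H line, so these markers were read as genes and not as a measure of other cell types. What lay behind their differences was not tested.

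The profile of the family over the 5 arrays was highest on ACOT12 replicate 2 and lowest on empty vector replicate 2. Averaged over the 6 members after centring each on its own mean, it stood at −0.13 and 0.40 in ACOT12 cells and 0.01 in mutant cells, against −0.0045 and −0.28 in empty vector cells. The members lay between 0.14 (MT1G) and 0.27 (MT1F) root-mean-square log2 units from this profile. Since the profile is their own mean, these distances are not comparable with those of other genes. The genes nearest to it over the 5 arrays were the Wnt receptor FZD3 (0.025), the respiratory chain subunit NDUFB1 (0.029), the inner ear glycoprotein gene OTOG (0.034), R3HDM4 (0.034) and TBC1D10A (0.048). They are named by distance alone, as a description of these arrays. The SD over the 5 arrays was 0.30 to 0.43 log2 units for 5 of the 6 members and 0.14 for MT1E, beside a median of 0.20 over all genes tested.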

How the data were processed

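Intensity values on a linear scale were deposited for 5 arrays hybridised with Cy5-labelled material. The labels' protocols name Trizol for the RNA and an amplification step before labelling. For the scanner, background correction and scaling: not given in the sources used here. Values below 0 occur on 3 arrays.

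Probes were named through the platform annotation. Of 28264 probes, 25893 had 1 gene symbol, 0 several and 2371 none, and all 25893 matched a current gene table by gene identifier. Values below 0 were set to 0, 1 was added and log2 was taken, with no rescaling. Where a gene had several probes, the one with the largest mean on the log2 scale stood for it. Probes under the 25th percentile of mean log2 (7.34) were left out, which left 15053 genes. All 5 arrays entered a single fit with group as its sole term, in limma 3.58.1 (eBayes without trend) under R 4.3.3, with 2 residual and 3.96 prior degrees of freedom. Tests were two-sided, with Benjamini-Hochberg adjustment over all 15053 genes and a threshold of 0.05. With 2 arrays against 2, exact permutation goes no lower than p = 0.333 and was not run. The procedure was tested on simulated data.

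The members and gene lists were chosen with earlier results of these data known. The rule for naming took every member and ACOT12. Of each list it took up to 4 genes past the threshold, filled up to 2 by smallest p, and of marker lists only genes past the threshold are printed. It further took the 5 genes nearest to the members' mean profile. Alternatives were 3 scalings, 2 filters, another offset, 2 treatments of several probes, an intensity trend, a replicate block and leaving out each array.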

Additional observations from a re-analysis of the deposited data

How the results depend on the processing

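Over 246 refits of single members, 2 passed the threshold of 0.05, both for MT2A with array medians centred, and 26 turned in direction without passing. The count of members past the threshold was 0 in each comparison as deposited and 1 with array medians centred for the mutant against empty vector and for ACOT12 against the mutant. It was 0 under every other alternative in all 3 comparisons. Centring moves every gene by the same amount within a comparison. It took the median of all genes from −0.13 to 0.16 for the mutant against empty vector, and from 0.13 to −0.28 for ACOT12 against the mutant. The part of this shift in the MT2A result was not tested.

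The median member difference for the mutant against empty vector was 0.52 with the filter at the 50th percentile, which kept 2 members. For ACOT12 against the mutant it was −0.24 with array medians centred, −0.31 with quantile normalization, −0.26 with cyclic loess and −0.37 with that filter. With 1 array left out, medians ran from −0.00027 to 0.61 for ACOT12 against empty vector, from 0.03 to 0.20 for the mutant and from −0.05 to 0.43 for ACOT12 against the mutant.

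Counts of all genes past the threshold moved far more. For ACOT12 against empty vector (0 as deposited) they were 45 with array medians centred (18 higher), 2 with quantile normalization, 2 with cyclic loess, 192 without a filter, 1 with the larger offset, 8 with probe means, 1 with an intensity trend and 1 with the replicate block. For the mutant (5, all lower) they were 1446 (550 higher), 8 (1 higher), 187 (22 higher), 150 (137 higher), 8, 11 (6 higher), 483 (26 higher) and 1635 (118 higher) in that order, 141 with the filter at the 50th percentile and 9 with every probe on its own. For ACOT12 against the mutant (1389, 1386 of them higher) they were 2022 with array medians centred (1339 higher), 5 with quantile normalization, 1 without a filter, 638 with the filter at the 50th percentile and 2485 with the replicate block. With 1 array left out they ran from 0 to 5, from 0 to 2023 and from 0 to 2379 in these 3 comparisons. Each ACOT12 array left out alone gave 0 in the last 2.

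Members that turned for ACOT12 against empty vector were MT1X at −0.12, −0.058 and −0.038, and MT1E at −0.016, −0.087 and −0.048, with centring, quantile normalization and cyclic loess. MT1M was −0.0035 with quantile normalization and −0.018 with cyclic loess. For the mutant, MT1M was 0.13, 0.16 and 0.072 and MT1F 0.035, 0.064 and 0.015 under these 3 scalings. For ACOT12 against the mutant, MT1M was −0.16 and −0.090 and MT1G −0.10 and −0.035 with quantile normalization and cyclic loess. With 1 array left out, values ran from −0.39 to 0.41 for MT1X, from −0.046 to 0.62 for MT2A and from −0.0011 to 0.23 for MT1E (ACOT12 against empty vector), from −0.33 to 0.030 for MT1M, from −0.65 to 0.15 for MT1F and from −0.13 to 0.18 for MT1G (mutant), and from −0.64 to 0.15 for MT1X (ACOT12 against the mutant).

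The replicate numbers are shared by ACOT12 and empty vector, and deviations of their same-numbered arrays correlated at 0.16 across genes. With 2 pairs this does not show that the numbers pair the samples. With the replicate number as a block no member passed, and MT2A read 0.93 for the mutant (limma, adjusted p = 0.0825).

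Dim probes limit the reading of MT1F, MT1G and MT1M, and of MT1E, which lies in the brightness decile of MT1G. Their signal over background is unknown.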
